A study of Equus asinus with 2 samples.

Results

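The cells described here are stromal cells of the fetal donkey gonad and, in the earlier library, its attached mesonephros that carry POSTN, the gene of periostin. Which of these tissues a 4-week barcode came from cannot be told apart. They were chosen from measured values: a cell barcode with at least 2000 UMIs (unique molecular identifiers, each standing for 1 captured transcript) was a member when it held at least 2 POSTN UMIs at 2 or more per 10000, COL1A2 at 5 or more per 10000, RGS5 under 3 per 10000, and fewer than 3 UMIs in all of TOP2A, MKI67 and ASPM. COL1A2 (a fibrillar collagen chain) marks stroma, RGS5 marks pericytes, and the last 3 genes mark dividing cells. The rule took 101 of 8938 barcodes in the 4-week library and 403 of 14593 in the 8-week library, 504 of 23531 in all. They were set against the other barcodes with COL1A2 at 5 or more per 10000, 1902 at 4 weeks and 7077 at 8 weeks. The values of POSTN, COL1A2, RGS5 and the 3 division genes chose the members and are given only as a description.

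The study profiled single cells of Equus asinus fetuses in early pregnancy with droplet RNA sequencing. The first library came from gonad and mesonephros (the transient embryonic kidney beside the gonad) at 4 weeks of gestation, and the second from tissue labelled as ovary at 8 weeks. Each stage was 1 library, with the number of fetuses behind it left unstated, so no difference between stages or groups has a replicate check, and stage, dissected tissue, fetus and library cannot be told apart. Intervals below are exact 95% counting intervals and cover counting error only.

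The libraries held 122341903 and 155128130 UMIs, and 7742 and 11076 barcodes reached 2000 UMIs. The libraries shared 38 barcode sequences. No 4-week member and 2 8-week members were among them. The library labelled ovary did not carry the profile of its label: AMH, the Sertoli cell hormone, stood at 514 CPM (UMIs per 1000000), INSL3, a Leydig cell hormone, at 180.5 CPM and the testis-determining gene SRY at 9.64 CPM, while the granulosa cell factor FOXL2 stood at 1.55 CPM. At 4 weeks the same genes stood at 419.9, 4.86, 3.49 and 1.03 CPM.

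Periostin is a secreted matricellular protein, one that sits in the matrix, binds integrins and collagen and modulates how cells attach to it. It is made by mesenchymal cells in periosteum, heart valves, tendon, fascia and healing wounds. In a developing gonad the stroma fills the interstitium between cords, forms the outer capsule and the mesentery, and gives rise to steroidogenic cells. The label under which these cells were described joins POSTN with VAT1L (a vesicle membrane protein), CCBE1 (a secreted factor needed to activate the lymphatic growth factor VEGFC) and EDNRB (an endothelin receptor) and places them in the early gonad and mesonephros.

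The data bore out this label only in part. Members made up 5.04% of the COL1A2 barcodes at 4 weeks (101 of 2003, Clopper-Pearson 4.13% to 6.09%) and 5.39% at 8 weeks (403 of 7480, 4.89% to 5.92%). Barcodes that met the rule were thus not limited to the early library. These shares do not show that the same cells were present at both stages. EBF2 and TBX18 were held by 13 and 14 of the 4-week members and by 3 and 0 of the 8-week members. Of all barcodes with at least 2000 UMIs they took 1.30% at 4 weeks (1.06% to 1.58%) and 3.64% at 8 weeks (3.30% to 4.004%), beside COL1A2 barcodes that took 25.9% and 67.5%. With a minimum of 10000 UMIs the share of COL1A2 barcodes stood at 3.22% and 3.84%, and with POSTN at 5 or more per 10000 at 1.90% and 2.49%.

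The genes joined to POSTN in the label did not travel with it as a set. CCBE1 stood at 278 CPM (245 to 313) in 4-week members and 141 CPM in the other COL1A2 barcodes, 1.97-fold higher (1.73 to 2.23). At 8 weeks it stood at 105 and 62.5 CPM, 1.68-fold higher (1.52 to 1.86). In 1 random thinning of each barcode to 2000 UMIs, 37.6% of 4-week members (28.2% to 47.8%) and 19.5% of the other barcodes within the RGS5 and division limits (17.4% to 21.8%) held a CCBE1 UMI, against 0.508% of endothelial barcodes. Without thinning, 65.3% of the members held one. EDNRB stood at 80.7 CPM (63.7 to 101) in 4-week members and 83.1 CPM in the others, a ratio of 0.97 (0.76 to 1.22). At 8 weeks the EDNRB ratio was 0.73 (0.59 to 0.90). VAT1L was lower in members, at 26.2 and 39.1 CPM at 4 weeks (ratio 0.67, 0.43 to 1.00) and at 8.01 and 12.01 CPM at 8 weeks (0.67, 0.45 to 0.96). Only 7 of 101 members held a UMI of each of the 3 genes at 4 weeks and 19 held none. At 8 weeks 2 of 403 held each and 201 held none. The cells are therefore called POSTN members here, by the rule, and not a type.

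POSTN itself reached different heights in the libraries. The 4-week members ranged from 2.01 to 186 per 10000 with a median of 4.297, and the 8-week members from 2.01 to 35.7 with a median of 4.71. In sums this was 1546 CPM at 4 weeks and 474 CPM at 8 weeks, against 2.88 and 6.18 CPM in endothelial barcodes (no COL1A2 at the limit, and at least 5 UMIs over PECAM1, CDH5 and KDR) and 3.35 and 5.89 CPM in macrophage barcodes gated the same way on CSF1R, C1QA and C1QB. Members with exactly 2 POSTN UMIs numbered 34 at 4 weeks and 139 at 8 weeks, so members at the edge of the rule were 33.7% and 34.5% of all. Just outside the limit, 134 and 497 of the other barcodes within the RGS5 and division limits held 1 POSTN UMI.

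At 4 weeks 13 members lay above the other 88 in POSTN. They held POSTN at 22.0 to 186 per 10000 (median 81.0), while the other 88 reached at most 15.0 (median 3.98). The line between them, at 20 per 10000, was drawn after the values were seen. It did not lie at the widest step: the lowest of the 13 stood at 22.0 with 12 UMIs, and the next at 44.9. These 13 barcodes carried 76.9% of the members' 1474 POSTN UMIs. Their COL1A2 was also high, with a median of 61.1 per 10000 against 18.1 in the other 88. At 8 weeks POSTN ran across this line in small steps: 11 members lay above 20 per 10000 and held 5.85% of the POSTN UMIs.

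**Figure D1:**
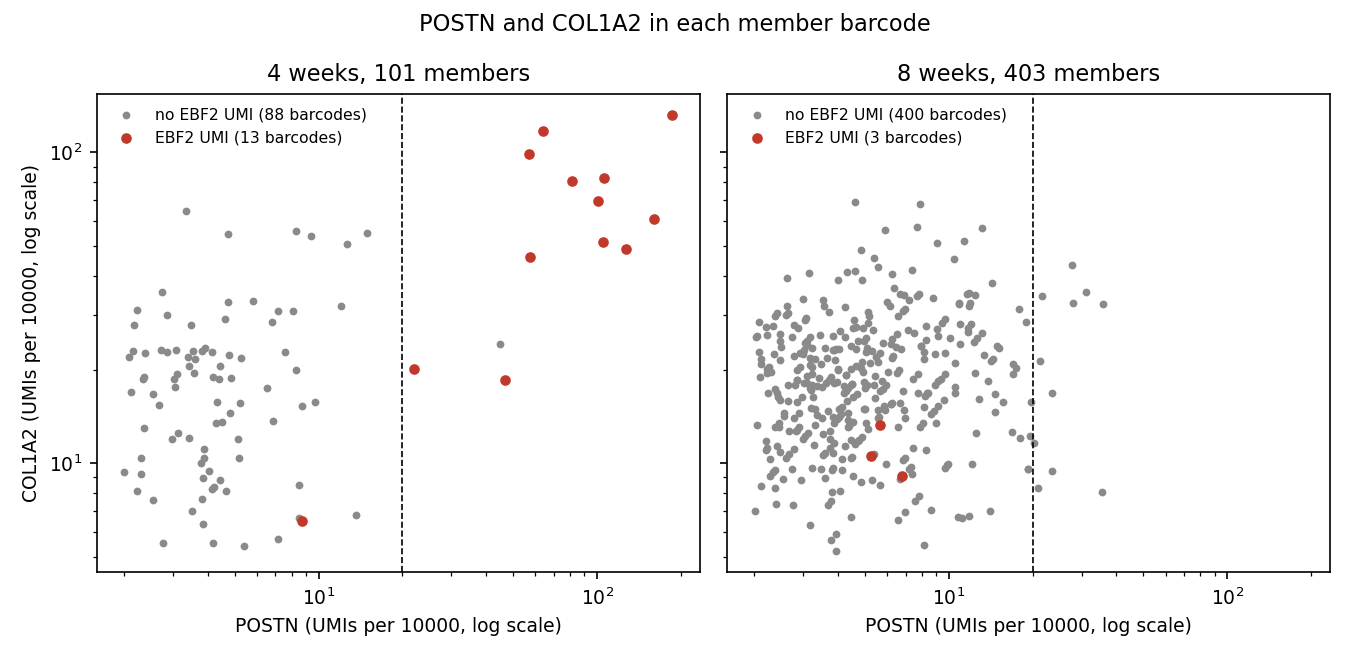
POSTN against COL1A2, both in UMIs per 10000 on log axes, for each of the 101 members at 4 weeks and the 403 at 8 weeks; red points hold an EBF2 UMI and the dashed line stands at 20 per 10000. Of the 13 barcodes to the right of the line at 4 weeks, 12 hold EBF2, while 3 of 403 members hold it at 8 weeks.

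The 13 POSTN-high barcodes held EBF2, SCARA5, PLAC9, COL14A1 and SLIT2 at high levels, genes named after their values were seen. EBF2, a transcription factor of mesenchymal and fat precursors, was found in 12 of the 13, at 0 to 13.1 per 10000 with a median of 4.71. It summed to 574 CPM there and 2.47 CPM in the other 88 members. SCARA5, a ferritin receptor known from fascia and adventitial fibroblasts, was found in 9 (259 against 1.23 CPM), PLAC9 in 11 (931 against 91.3 CPM), the fibril-associated collagen COL14A1 in 11 (686 against 69.1 CPM) and SLIT2, a guidance ligand, in 12 (1190 against 93.7 CPM). DPT (dermatopontin) was held by 7 of the 13, SFRP4 by 6 and the atypical chemokine receptor ACKR4 by 7, each with 0 UMIs in the other 88. For ACKR4, 16 UMIs against a floor of 3 UMIs over the 88 barcodes put it at least 30.3-fold higher. EDNRB was held by 1 of the 13.

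Many genes of the matrix lists stood higher in these barcodes, and some lower. Between the 13 and the other 88 members 9871 features were measured, 14.9% of them at least 2-fold higher and 21.6% at least 2-fold lower. The 13 barcodes hold 142900 UMIs, and 749 of the 1475 higher calls were lost without each gene's leading barcode. Against that background 10 of 25 measured collagens were higher and 6 lower, 7 of 14 proteoglycans were higher and 1 lower, and 6 of 13 elastic fibre genes were higher and 1 lower. Of 21 matricellular genes 8 were higher and 4 lower, and of 15 integrins 3 were higher and 5 lower. COL1A1 stood at 7327 against 1412 CPM, 5.19-fold higher (4.77 to 5.65), COL3A1 at 6340 against 1348 CPM, and the keratan sulfate proteoglycan LUM (lumican) at 434 against 80.2 CPM. FBN1, the microfibril protein of elastic fibres, stood at 609 against 123 CPM and PCOLCE, an enhancer of procollagen cleavage, at 350 against 34.5 CPM. The basement membrane chains COL4A2 and COL4A6 were among the 6 lower collagens. TNC (tenascin C), like periostin a matricellular protein, had 0 UMIs in the 13 and 75.2 CPM in the others. Of 24 measured WNT pathway genes 9 were higher and 4 lower. Among the higher ones the secreted WNT antagonist SFRP1 stood at 1666 against 217 CPM, 7.67-fold higher (6.29 to 9.38), and SFRP4, with 37 UMIs against 0, at least 70.0-fold higher, 56.8% of them in 1 barcode.

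Regulators of gonad identity were low in the same 13 barcodes. Of 15 measured gonad transcription factors and gonad progenitor genes 10 were at least 2-fold lower and 1 higher, against the 21.6% of all features that were lower. LHX9, needed to form the gonad, had 0 UMIs in the 13 and stood at 224.5 CPM in the other 88, at least 10.7-fold lower with the floor of 3 UMIs over the group. NR0B1 stood at 20.99 against 229 CPM, 10.9-fold lower (3.68 to 53.5). GATA4, with 2 UMIs in the 13 and 99.9 CPM in the others, was 7.14-fold lower (1.91 to 59.9), and WT1 stood at 28.0 against 145.5 CPM, 5.20-fold lower (1.98 to 19.4). PDGFRA, the receptor of interstitial progenitors, was held by 8 of the 13 but stood at 133 against 369 CPM. Of the Hedgehog genes, PTCH1, a receptor and target of the pathway, had 0 UMIs in the 13 against 93.7 CPM. HOXA6 (63.0 against 9.87 CPM) and HOXA9 (49.0 against 9.87 CPM) were higher and HOXD9 (20.99 against 77.7 CPM) was lower.

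One of the 13 barcodes also carried steroidogenic RNA. It held 306 UMIs of CYP17A1, the androgen-synthesis enzyme, which was 94.4% of the CYP17A1 UMIs of all 101 members. Because of it CYP17A1 stood 3.73-fold higher in 4-week members than in the other COL1A2 barcodes (340 and 91.1 CPM), and without it the ratio was 0.21. The barcode held 29757 UMIs in all, the most of the 13. Its score against simulated doublets was 0.856, above those of 97.1% of the library's barcodes and above the limit of 0.727 that marks the highest 6%. The other 12 POSTN-high barcodes scored below that limit. The other 88 members held CYP17A1 at 18.5 CPM, below the 116 CPM of endothelial barcodes.

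Clustering of all COL1A2 barcodes of a library, with the 6 genes of the rule left out, showed where the members lay. At 4 weeks 13 members were in cluster 10 (80 barcodes, led by EBF2, SFRP4 and SCARA5), among them 11 of the 13 POSTN-high barcodes. Another 23 were in cluster 8 (96 barcodes, led by KCNH1, TBX18 and NTRK2), where they made up 24.0% of the barcodes. The remaining 65 were spread over other clusters, with 26 in cluster 3 (led by PENK, HERC6 and NR4A2) and 17 in cluster 1 (led by COL24A1, OGN and TNNT1). Of the 20 nearest neighbours of a member, 19.9% were members at 4 weeks and 19.8% at 8 weeks, against 5.04% and 5.39% of all COL1A2 barcodes. The rule keeps dividing and RGS5 barcodes out of the members, while other genes of such barcodes stayed in the clustering. At 4 weeks cluster 7 (97 barcodes, led by CCNB1, UBE2C and CDC20) held 0 members. These neighbour shares are thus in part set by the rule, and how far was not tested. Of the neighbours of the 13 POSTN-high barcodes, 35.8% were POSTN-high themselves, against 0.649% of all COL1A2 barcodes. For the 11 members above the same line at 8 weeks the shares were 2.27% and 0.147%. The clusters are not named as cell types, and since they were formed from these genes their values below are a description.

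**Figure D2:**
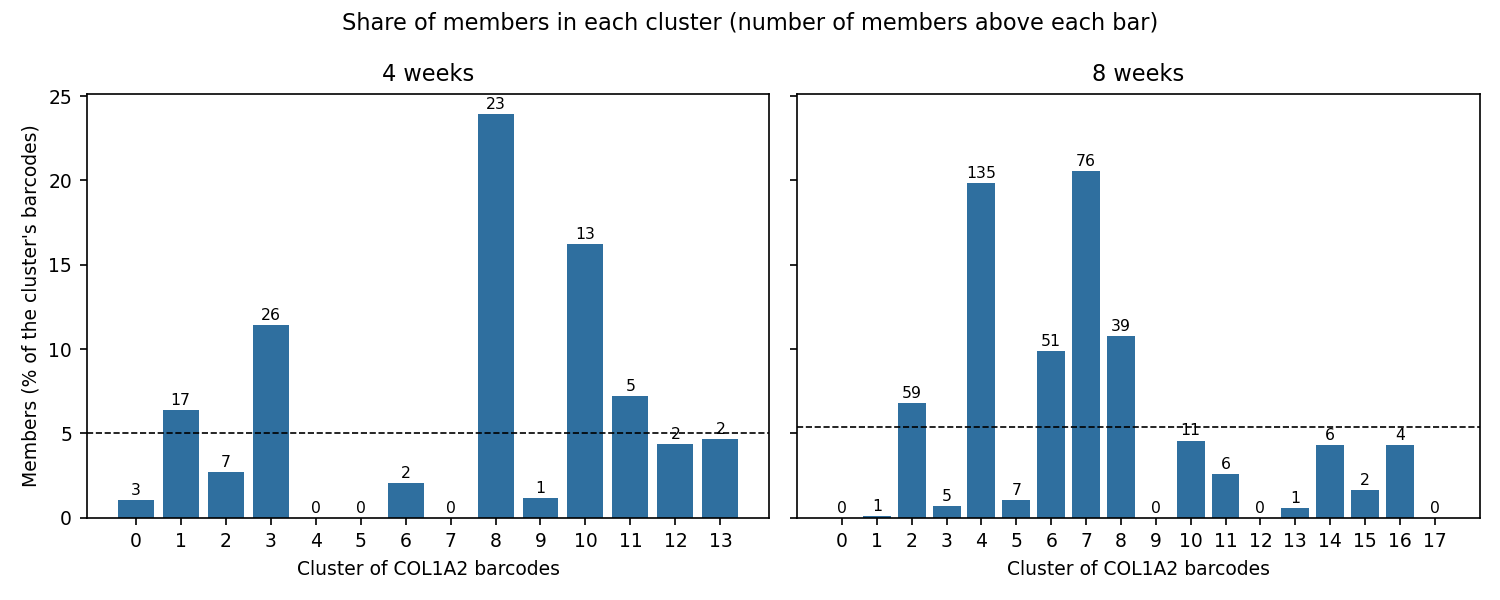
Members as a percentage of the barcodes of each cluster of COL1A2 barcodes, by library, with the number of members above each bar and the share in the whole library as a dashed line. At 4 weeks clusters 8 and 10 are highest with 24.0% and 16.2%, and at 8 weeks clusters 7 and 4 with 20.5% and 19.9%.

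Members of cluster 8 were the ones closest to the label. CCBE1 was held by 20 of the 23 and stood at 668 CPM (552 to 801), against 180 CPM (149 to 216) in the 65 members of the remaining clusters. EDNRB stood at 150 CPM (97.8 to 219.5), against 76.3 CPM (56.6 to 101), although 1 barcode gave 38% of its UMIs. VAT1L stood at 28.8 CPM (9.35 to 67.2), no higher than in the other COL1A2 barcodes within the limits (39.9 CPM). TBX18, a transcription factor of mesenchyme around the ureter and coelomic epithelium, stood at 115 CPM against 7.63 CPM, the ligand BMP5 at 167 against 4.58 CPM, and NTRK2, a neurotrophin receptor, at 184 against 15.3 CPM. MECOM, a transcription factor of mesonephros and vessels, stood at 357 against 19.8 CPM. RARB, a retinoic acid receptor and target, was held by 16 of the 23 (173 against 33.6 CPM).

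Gonad regulators differed among the subsets. In the cluster 8 members LHX9 was at 11.5 CPM, GATA4 at 5.76 CPM and NR0B1 at 34.6 CPM, close to their levels in the cluster 10 members (1, 2 and 2 UMIs). In the 65 members of the remaining clusters they stood at 273, 122 and 276 CPM, near or above the other COL1A2 barcodes within the limits (185, 117 and 221 CPM). TCF21, a regulator of gonadal and mesonephric stroma, and GATA6 did not follow this order: TCF21 stood at 219 CPM in cluster 8 members, 59.5 CPM in the remaining 65 and 32.0 CPM in cluster 10 members, and GATA6 at 138, 99.2 and 56.0 CPM. By ratio to the other COL1A2 barcodes within the limits the 65 were led by CYP17A1 and CITED1, with 96.8% and 97.0% of the UMIs in 1 barcode, and by ANO3. Genes with far higher levels in the 65 than in the other subsets were CSMD1 (1590 CPM, against 17.3 CPM in cluster 8 and 0 UMIs in cluster 10), NXPH1 (577 CPM), TENM1 (203 CPM), RXFP2 (201.5 CPM), PHEX (139 CPM) and ANO3 (104 CPM). RXFP2 is the receptor of INSL3. The other COL1A2 barcodes within the limits held some of these genes too, with NXPH1 at 199.9, TENM1 at 70.8, PHEX at 53.8 and ANO3 at 25.9 CPM.

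**Figure D3:**
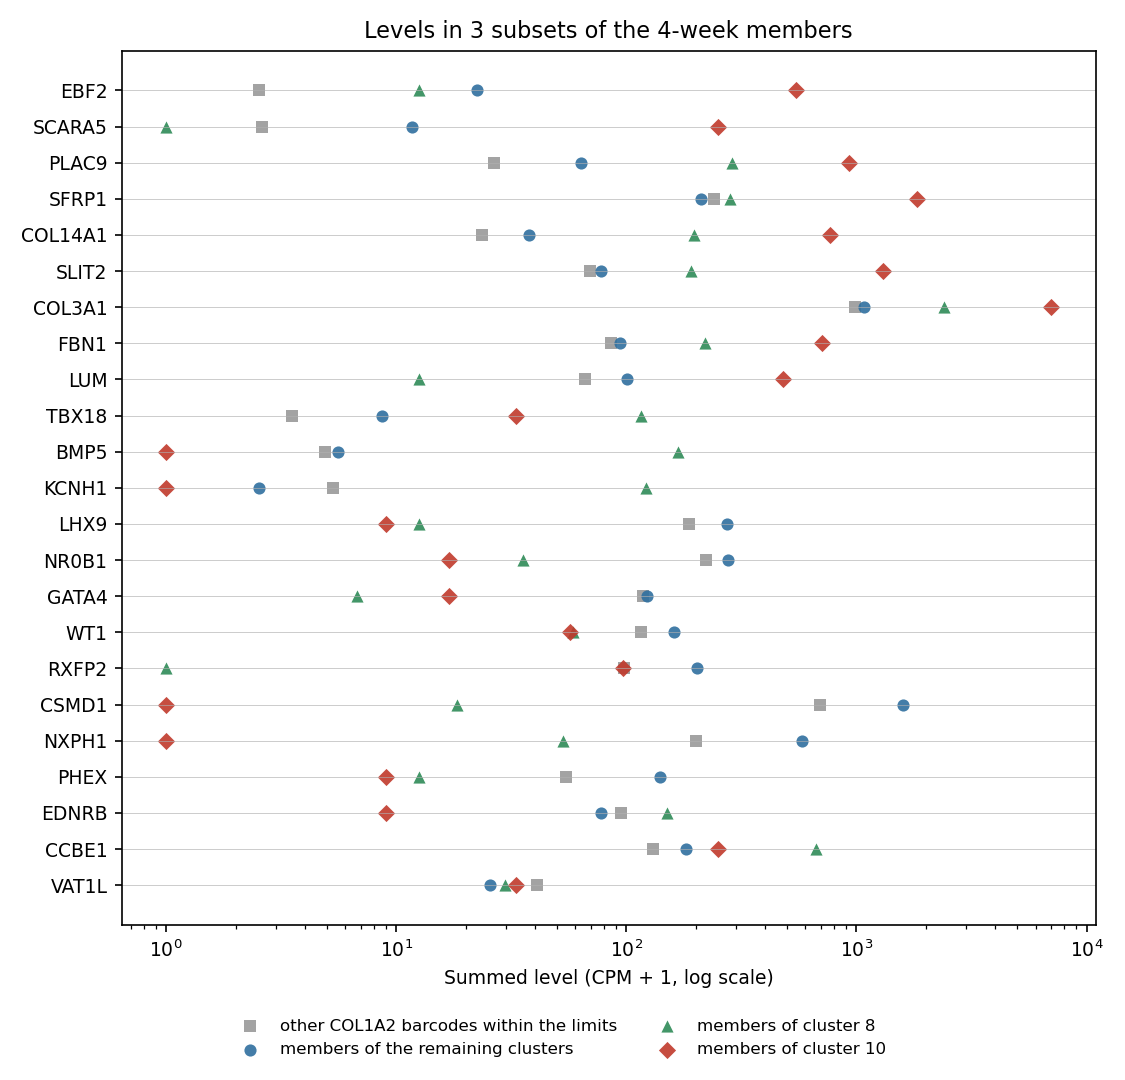
Summed levels (CPM + 1, log axis) of 23 genes in the 4-week members of cluster 10 (13 barcodes), of cluster 8 (23 barcodes) and of the remaining clusters (65 barcodes), beside the other COL1A2 barcodes within the limits (1287 barcodes). EBF2 to LUM are highest in cluster 10, TBX18, BMP5, KCNH1 and CCBE1 in cluster 8, and LHX9, CSMD1 and NXPH1 in the remaining members.

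Against the other COL1A2 barcodes at 4 weeks, 10235 features had a mean of at least 10 CPM, and 162 (1.58%) were at least 2-fold higher and 406 (3.97%) at least 2-fold lower in members. EBF2 was 47.1-fold higher (32.3 to 69.4), ANGPTL1 11.5-fold (8.02 to 16.3), PLAC9 8.14-fold (6.92 to 9.54), ANXA1 6.27-fold (4.81 to 8.07) and COL14A1 5.82-fold (4.85 to 6.95). FBLN5, which links cells to elastic fibres, was 5.01-fold higher, IGFBP6 4.83-fold, COL21A1 4.58-fold, NTRK2 4.37-fold, SFRP2 4.36-fold and CREB5 3.63-fold. Endothelial barcodes held ANXA1 and CREB5 too, at 129 and 196 CPM against 80.7 and 220 CPM in members. A few barcodes carried many of these calls: with each gene's leading barcode left out, 85 of the 162 were still at least 2-fold higher. With the 13 POSTN-high barcodes left out, 123 features were at least 2-fold higher. EBF2 belonged to those 13, which held 82 of its 84 UMIs. In the other 88 members it stood at 2.47 CPM, with a log2 ratio of 0.40. ANXA1, SFRP2 and COL21A1 also fell short of 2-fold there (log2 ratios of 0.52, 0.50 and -0.12), while ANGPTL1, PLAC9, FBLN5, NTRK2, CREB5, COL14A1 and IGFBP6 stood between 1.06 and 2.31.

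Genes of cell division filled the lower side, which the rule itself sets by keeping out dividing barcodes. Of 23 measured G2 and M phase genes 22 were at least 2-fold lower at each stage. Within the same RGS5 and division limits (1287 other barcodes at 4 weeks and 4567 at 8 weeks) 1 of 10 and 1 of 12 was. The members are compared with those barcodes from here on. Of 10055 features 184 (1.83%) were then at least 2-fold higher and 152 (1.51%) lower at 4 weeks, and of 10116 features 112 (1.11%) higher and 51 (0.504%) lower at 8 weeks.

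Summed together, the 4-week members differed within these limits in mesenchymal regulators and not in gonad regulators, with calls that rested in part on the POSTN-high barcodes. Of 42 measured mesenchymal transcription factors 7 were higher (TWIST1, OSR1, TBX18, ALX1, EBF1, EBF2 and NFIX) and EYA1 was lower. None of 14 gonad genes passed 2-fold in either direction, with a median log2 ratio of -0.01 against -0.03 over all features, although LHX9, GATA4 and NR0B1 differed among the subsets above. Of 22 measured WNT genes 6 were higher (WNT9A, FZD7, SFRP2, SFRP4, RSPO3 and ROR1) and WNT4 was lower. Of 24 collagens COL3A1, COL12A1, COL14A1 and COL21A1 were higher and none lower. Of 20 matricellular genes CCN3, SPARCL1 and FBLN5 were higher and SPP1 was lower. In the 88 members without the POSTN-high barcodes, 124 of 9986 features were higher and 194 lower. Among them 4 of 40 mesenchymal factors were higher (OSR1, TBX18, ALX1 and EBF1) and EYA1 was lower. Of 20 WNT genes WNT9A and FZD7 were higher there and WNT4 was lower. Among 24 collagens only COL14A1 was higher and none was lower.

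At 8 weeks the genes with the highest ratios included RSPO2, RSPO3, BMP3 and LRP1B. RSPO3 was higher in the 4-week members too, 3.39-fold with the POSTN-high barcodes included. EBF2 was held by 3 of 403 members. RSPO3, a secreted R-spondin that strengthens WNT signals, stood at 106 CPM (96.0 to 117) in members and 33.8 CPM in the others, 3.15-fold higher (2.81 to 3.52). RSPO2, of the same family, stood at 37.9 and 9.01 CPM, 4.21-fold higher (3.44 to 5.12). The 4-week members held 2 RSPO2 UMIs in 1 barcode. Of 19 measured WNT genes 3 were higher (RSPO2, RSPO3 and the antagonist DKK2) and none was lower, with a median log2 ratio of 0.28 against 0.01 over all features. BMP3, a BMP ligand that acts as an antagonist, was 3.07-fold higher (82.7 and 27.0 CPM). LRP1B, a lipoprotein receptor family member, was 3.39-fold higher (196 and 58.0 CPM), the teneurin TENM1 3.09-fold, the potassium channel KCNJ3 3.48-fold and RXFP2 2.40-fold (163 and 67.7 CPM). Against all other COL1A2 barcodes at 8 weeks, where 159 of 10196 features (1.56%) were higher and 213 (2.09%) lower, RSPO3 was 4.31-fold higher (3.87 to 4.79) and RSPO2 5.90-fold (4.88 to 7.09).

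Among matrix genes at 8 weeks, collagens passed 2-fold, and proteoglycans and elastic fibre genes did not pass it upward. TNC was 2.88-fold higher (72.8 and 25.3 CPM, 2.51 to 3.29) and the fibril-associated collagen COL12A1 2.69-fold (203 and 75.7 CPM, 2.48 to 2.91). Of 23 measured collagens 4 were higher (COL12A1, COL14A1, COL23A1 and COL24A1) and none lower, against 1.11% and 0.504% of all features. Among 14 proteoglycans none was higher and EPYC and GPC4 were lower. No gene of 13 elastic fibre genes, 17 collagen-processing genes or 11 integrins passed 2-fold. Endothelial barcodes held COL12A1 at 151.5 CPM, between these groups, and TNC at 1.16 CPM.

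Of 7 measured steroidogenic markers 5 were at least 2-fold lower in the 8-week members (STAR, CYP17A1, CYP11A1, INSL3 and LHCGR) and none was higher. None of 14 gonad genes and none of 9 general stroma markers passed 2-fold. INSL3 stood at 6.40 CPM (4.10 to 9.53) in members and 54.7 CPM in the others, 8.55-fold lower (5.73 to 13.4), which put the members at the 6.37 CPM of endothelial barcodes. This difference was not seen at matched depth: in barcodes of 3000 to 6000 UMIs within the limits INSL3 stood at 13.6 CPM (10.7 to 17.01) without POSTN, and at 8.64, 22.3 and 23.7 CPM in members of rising POSTN, from 2, 6 and 3 UMIs. CYP11A1, the enzyme that cleaves the cholesterol side chain, was 3.20-fold lower (25.6 and 82.0 CPM), and CYP17A1 2.38-fold (79.8 and 190 CPM, with 80.7 CPM in endothelial barcodes). At the same matched depth CYP17A1 was closer, at 90.8 CPM without POSTN and 86.4, 55.8 and 31.6 CPM in members of rising POSTN. CYP11A1 stood there at 50.8 CPM without POSTN and 25.9, 33.5 and 7.89 CPM in those members. EPYC (epiphycan, a small proteoglycan) was 5.40-fold lower (10.9 and 59.1 CPM), the phospholipase family member PLD5 3.61-fold, and the transcription factor MSC (musculin) 2.39-fold (43.2 and 103 CPM). Of 10 measured Hedgehog genes PTCH1 (97.9 and 197 CPM, 2.02-fold) and HHIP (20.01 and 49.3 CPM, 2.46-fold) were lower, and both are known targets of the pathway. None was higher.

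Some of the 8-week differences followed the level of POSTN and others did not. Shallow barcodes need a higher POSTN level to reach 2 UMIs, so barcodes of 3000 to 6000 UMIs were compared within the limits: 1229 with no POSTN UMI, 147 with 1, and members in 3 steps of POSTN (47 under 5 per 10000, 65 from 5 to under 10, and 30 at 10 or more). RXFP2 stood at 102, 210, 242, 257 and 418 CPM in this order. LRP1B stood at 73.3, 190.2, 190.2, 376 and 418 CPM, and BMP3 at 31.7, 70.9, 69.2, 100.5 and 150 CPM. The barcodes with 1 POSTN UMI, which the rule leaves out, thus lay between those with none and the members for RXFP2 and close to the lowest members for the other pair. RSPO2 stood at 11.98 CPM (9.28 to 15.2) without POSTN and 94.7 CPM (49.0 to 165) at 10 or more per 10000. MSC ran the other way, at 110.5, 57.4, 38.9, 37.2 and 15.8 CPM, as did HHIP, at 47.6, 22.6, 13.0, 14.9 and 0 CPM. COL12A1 (100, 192, 207.5, 305 and 276 CPM), GRIK1 (98.7, 115, 125, 272 and 182 CPM) and TNC (27.4, 61.9, 112, 100.5 and 78.9 CPM) were higher in members than without POSTN but lower in the last step than before it, with overlapping intervals. CYP17A1 stood at 90.8, 75.5, 86.4, 55.8 and 31.6 CPM, and CYP11A1 at 50.8, 45.3, 25.9, 33.5 and 7.89 CPM. CCBE1 had no such order, at 84.8, 110.2, 104, 130 and 110.5 CPM. EDNRB was highest without POSTN, at 31.8, 25.7, 13.0, 22.3 and 0 CPM, with 3, 6 and 0 UMIs in the steps of members.

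**Figure D4:**
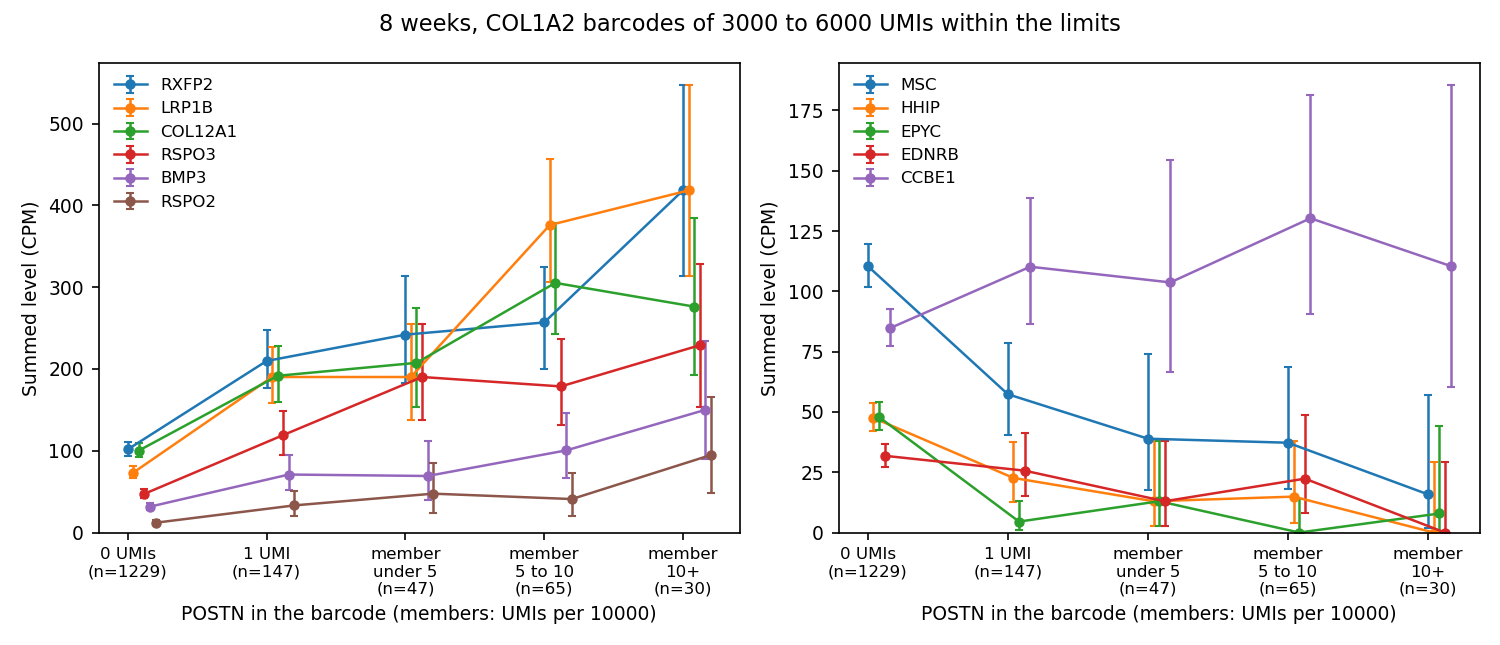
Summed levels (CPM, with exact counting intervals) at 8 weeks in barcodes of 3000 to 6000 UMIs, ordered by POSTN. RXFP2, LRP1B, COL12A1, RSPO3, BMP3 and RSPO2 are lowest in barcodes without POSTN, MSC, HHIP and EPYC are highest there, and CCBE1 shows no order. EDNRB is also highest there, with few UMIs in the members.

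Some genes differed in the same direction at both stages, under the same rule. Of 9485 features measured in both comparisons within the limits, 100 (1.05%) were higher at 4 weeks and 93 (0.98%) at 8 weeks, and 23 were higher at both, 23.0% and 24.7% of the lists. They held the growth factors IGF1 (6.08-fold and 3.36-fold) and FGF7 (2.097-fold and 2.23-fold), the transcription factors OSR1 (4.67-fold and 2.67-fold) and EBF1 (3.08-fold and 2.89-fold), and the retinoic acid genes RARB (3.05-fold and 2.79-fold) and DHRS3 (2.39-fold and 2.21-fold). COL12A1 (3.32-fold and 2.69-fold), COL14A1 (7.15-fold and 2.14-fold), SLIT2 (3.76-fold and 2.18-fold), RSPO3 (3.39-fold and 3.15-fold), TENM1, ANO3 and GRIK1 were also there. Some of the 4-week calls rested on the POSTN-high barcodes. In the other 88 members FGF7, OSR1, EBF1, RARB and COL14A1 were still at least 2-fold higher at 4 weeks. IGF1, DHRS3, COL12A1, SLIT2 and RSPO3 were not among the genes called higher there. IGF1, EBF1 and RARB stood higher in endothelial barcodes (118, 661 and 139 CPM at 4 weeks) than in members (23.1, 269.5 and 62.9 CPM).

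On the lower side 14 features were shared, 11.3% of the 124 at 4 weeks and 43.8% of the 32 at 8 weeks. They included EPYC (0.45 and 0.19 of the level in the others), the transcription factor cofactor EYA1 (0.13 and 0.29), the basement membrane chains COL4A3 (0.42 and 0.29) and COL4A4 (0.21 and 0.36), the glypican GPC4 (0.31 and 0.49) and PLD5 (0.28 and 0.28). The 4-week sums behind several of these are small, 4 UMIs for EYA1 and 6 for COL4A4.

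**Figure D5:**
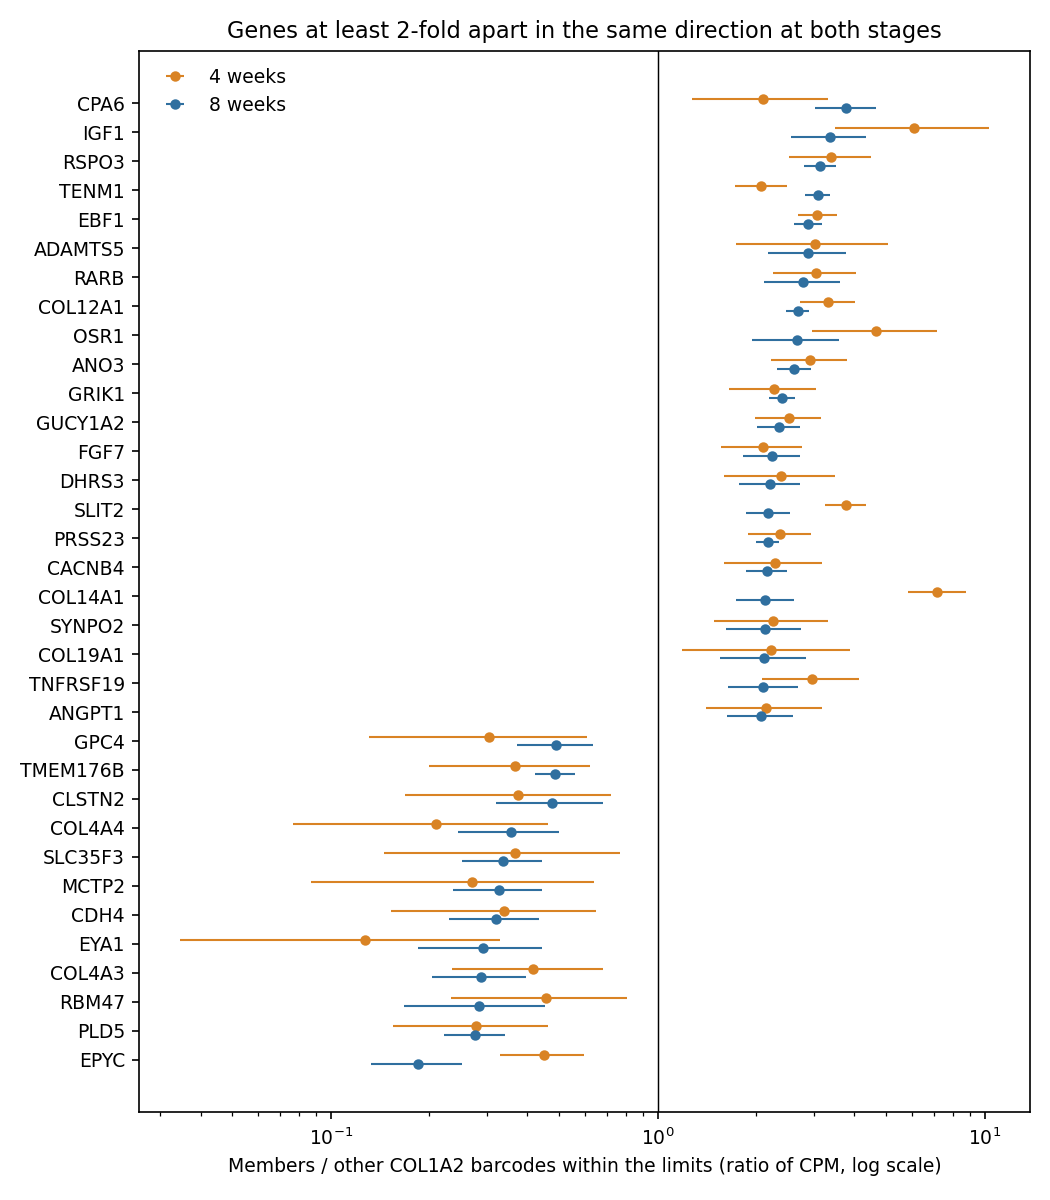
Ratios of members to the other COL1A2 barcodes within the limits (log axis, with exact counting intervals) at 4 weeks and 8 weeks, for the genes with a symbol that were at least 2-fold apart in the same direction at both stages. RSPO3, COL12A1, RARB and EBF1 lie at similar ratios at both, while COL14A1 and SLIT2 lie further out at 4 weeks. The 4-week ratios include the POSTN-high barcodes, without which RSPO3, COL12A1 and SLIT2 were not called higher at 4 weeks.

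Between the stages 554 of 10140 features (5.46%) were at least 2-fold higher and 479 (4.72%) at least 2-fold lower in 8-week than in 4-week members. For comparison, 287 of 10344 (2.77%) and 423 (4.09%) were so in the other COL1A2 barcodes, and dividing the members' ratio by that of the others left 258 higher and 159 lower. EBF2 stood at 88.1 CPM at 4 weeks and 1.33 CPM at 8 weeks, 66.0-fold lower (27.2 to 209). The 4-week value came from the 13 POSTN-high barcodes, and the other 88 members stood at 2.47 CPM, a log2 difference of -0.87 to 8 weeks. ANGPTL1 was 38.5-fold lower (51.4 and 1.33 CPM), PLAC9 21.4-fold (217 and 10.1 CPM), ANXA1 17.8-fold, NTRK2 16.2-fold and CREB5 12.7-fold. Without members of POSTN at 20 or more per 10000 at either stage, PLAC9 and ANXA1 were closer, at log2 differences of -3.15 and -2.19. In that setting ANGPTL1 stood at -4.04, NTRK2 at -3.57 and CREB5 at -3.48. TBX18, at 29 UMIs in 14 members at 4 weeks, had 0 UMIs in 403 members at 8 weeks, at least 38.0-fold lower with the floor of 3 UMIs over the group. Of the genes that lead clusters 8 and 10 at 4 weeks, EBF2, ANGPTL1 and TBX18 were thus at or near 0 in the 8-week members, while RSPO3 was not.

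Other genes that differed between the stages also lay outside the members. AFP (77.6 and 0.267 CPM), S100G (173 and 2.40 CPM) and GPX3 (78.6 and 1.07 CPM) stood at 58.0, 210 and 84.9 CPM in 4-week endothelial barcodes, and their part as free RNA was not tested. On the higher side CCL4 (2.097 and 115 CPM), a macrophage chemokine, stood at 9496 CPM in 8-week macrophage barcodes, and AMH (22.0 and 142 CPM) at 115 CPM in 8-week endothelial barcodes. SERPINE2, a protease inhibitor, was 4.37-fold higher (31.4 and 137 CPM, 3.02 to 6.54) and RYR3 and COL9A3 were 4.24-fold and 4.95-fold higher. PENK, the enkephalin precursor, stood at 9.44 and 74.2 CPM, 7.86-fold higher. RSPO3 and COL12A1 differed less (1.61-fold and 1.43-fold higher at 8 weeks), and RXFP2 and TNC had intervals across 1.

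Markers of other cell types were present in the members at sums that differed by type. Over 8 steroidogenic markers they held 737 and 352 CPM, against 362 and 635 CPM in the other barcodes within the limits, and 260 CPM at 4 weeks without the POSTN-high barcodes. Over 8 smooth muscle markers they held 554 and 812 CPM (601 and 638 CPM in those others), and over 8 surface epithelium markers 191 and 262 CPM (187 and 163.5 CPM). Over 12 endothelial markers they held 273 and 168 CPM, against 4961 and 4666 CPM in the endothelial barcodes. Over 10 macrophage markers they held 10.5 and 107 CPM, against 6736 and 9225 CPM in macrophage barcodes, and C1QB, CD163 and MRC1 were at 0 in 4-week members. Glial SOX10 was at 0 at both stages. Over 9 Sertoli markers they held 101 and 228 CPM, and over 8 pericyte markers 365 and 490 CPM, against 301 and 338 CPM in the other barcodes within the limits. At 8 weeks 3 of 6 measured pericyte markers (KCNJ8, ABCC9 and MCAM) were at least 2-fold higher in members than in those others and none was lower. Over all features 1.11% were higher and 0.504% lower. Over 7 tendon and perichondrial markers the members held 212 and 264 CPM, against 85.2 and 121 CPM in those others, and the 13 POSTN-high barcodes held 630 CPM. COL12A1, a gene of this list, gave most of the 8-week sums, with 203 CPM in members and 75.7 CPM in those others. It also gave most of the sum of the 4-week members. KERA was at 0 in 4-week members and TNMD in 8-week members. After removal of the barcodes with the highest 6% of simulated doublet scores, 96 and 382 members were left, with 178 and 171 features higher than in the other COL1A2 barcodes. The part of these markers in the results above was not tested.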

How the data were processed

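The 2 deposited matrices hold raw counts, UMIs per gene and barcode, per the file headers written by Cell Ranger 7.1.0. Per the submitters' processing notes the version was 2.1.1. Per the labels' protocols the libraries were made with a DNBelab C kit. The sources used here name no genome build, annotation or aligner. Of 38517 features 16536 had a deposited symbol, and 768 of 21981 locus identifiers got one from the RefSeq table of the EquAss-T2T_v2 assembly. No other column of per-sample values was left unused (0).

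The members and gene lists (25 pathway and 22 marker lists) were chosen with earlier results of these data known. Counts were summed over the barcodes of a group and scaled to CPM. Features with a mean of at least 10 CPM in the 2 groups were compared, the 6 genes of the rule left out, and called at 2-fold. A sum of 0 was set to 3 counts over the group. With 1 library per stage no test was run. Counting intervals are exact (Poisson for levels, binomial for ratios and shares). Genes named are the 12 with the highest and lowest interval bound nearest to 1 per comparison, members of the lists, leading genes of clusters, and genes chosen after their values were seen, among them those of the depth-matched comparison and of both stages. Doublets were scored against simulated pairs (2 per barcode) and kept in the main results. Clusters came from 2000 variable genes, 30 components, 20 neighbours and Leiden at resolution 1. In counts simulated for the 4-week comparison (10245 features), 99.5% of 200 features changed 4-fold were recovered and 55 unchanged features were called, since counting noise alone passes 2-fold for low genes.

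Python 3.11.15, numpy 2.4.6, scipy 1.17.1, pandas 2.3.3, scikit-learn 1.9.0, leidenalg 0.10.2 and matplotlib 3.10.9 were used.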

Additional observations from a re-analysis of the deposited data

Results flagged for a closer look

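Several genes stood on opposite sides in the members of the libraries, set against all other COL1A2 barcodes. With 1 library per stage the difference between the stages was not tested. CYP17A1 had a ratio of 3.73 at 4 weeks and 0.428 at 8 weeks, LHCGR, the luteinizing hormone receptor, of 2.23 and 0.350, and CITED1 of 3.11 and 0.283. At 4 weeks 1 barcode held 94.4%, 57.1% and 87.8% of the members' UMIs of these genes. LRRTM4 had ratios of 0.174 and 2.41, from 3 UMIs in 4-week members. The haemoglobin gene HBA1 had ratios of 0.427 and 2.97, with 67.8% of the 8-week UMIs in 1 barcode. LOC106830211, a feature without a symbol here, had ratios of 0.139 and 4.396, with 93.5% of the 8-week UMIs in 1 barcode.

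Barcodes that met the POSTN limit lay outside the members too. Of the barcodes with at least 2000 UMIs, 21 at 4 weeks and 66 at 8 weeks met it but held COL1A2 under 5 per 10000. Among barcodes under 2000 UMIs, 4 and 32 met the limits on POSTN and COL1A2.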

How the results depend on the processing

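Under the alternatives 53 share and count values lay within their spread or 1.5 times of the main value and 39 did not. Counts are given as features at least 2-fold higher, then lower. With a minimum of 10000 UMIs the members were 3.218% and 3.842% of COL1A2 barcodes at 4 and 8 weeks, and the 4-week counts 307 and 705. With POSTN at 5 or more per 10000 the shares were 1.897% and 2.487%, and the counts 668 and 1155 at 4 weeks, 349 and 335 at 8 weeks, and 1413 and 1125 between stages. With COL1A2 at 20 or more the shares were 7.605% and 7.176%, and the counts 464 and 636 at 4 weeks and 968 and 835 between stages. A mean of at least 50 CPM gave 37 and 60, 63 and 40, and 107 and 116 in the same order of comparisons, and no filter beyond 10 UMIs gave 3313 and 1333, 3491 and 1178, and 1394 and 1054. Equal weight per barcode gave 261 higher at 4 weeks. Others within the same limits gave 152 lower at 4 weeks and 51 at 8 weeks, and others with no POSTN UMI 174 and 63. Dividing by the ratio of the other barcodes gave 258 and 159 between stages. Leaving out each gene's leading barcode, an alternative chosen after seeing the data, gave 85 and 706 at 4 weeks. Apart from changes in the number of barcodes or features these settings make, the cause was not tested.

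Of 960 values of 72 single genes 947 kept their direction. The log2 ratio of CYP17A1 at 4 weeks turned to -1.209 without the highest doublet scores, -1.433 without barcodes with genes of other types, -2.225 without its leading barcode and -2.3 without the POSTN-high members. In the last setting, also added later, COL21A1 turned to -0.1192. With others within the limits CENPF turned to 0.3008, TPX2 to 0.2221 and NUSAP1 to 0.04771 at 4 weeks and CENPF to 0.009684 at 8 weeks. With others of no POSTN UMI CENPF turned to 0.2025 and TPX2 to 0.1864 at 4 weeks and DLGAP5 to 0.01911 at 8 weeks. S100G turned to 0.1574 when divided by the ratio of the others. No paired analysis was possible because each stage is 1 library, and for the same reason no replicate could be left out. TMM scaling shifted log2 ratios by at most 0.073 in size (-0.0733 between stages).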

Other observations

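Among barcodes that met the limits on POSTN and COL1A2 (146 at 4 weeks and 602 at 8 weeks), 35 and 99 failed the limit on dividing cells, 14 and 122 the limit on RGS5, and 4 and 22 failed both. The share over the RGS5 limit was 9.59% (5.34% to 15.6%) at 4 weeks and 20.3% (17.1% to 23.7%) at 8 weeks, with 1 library at each stage and no test of the difference.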
